A study of Mus musculus with 14 samples.

Results

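Surface proteins are used to sort the stromal progenitors that give rise to fat cells, and the genes of 10 such markers are described here in bulk mouse adipose tissue: Pdgfra, Pdgfrb, Cd34, Ly6a, Ly6c1, Pi16, Dpp4, Icam1, F3 and Cd24a. They were taken by gene name from the deposited table, where each has 1 row, so they are 10 of 54955 gene symbols or unnamed IDs. C57BL/6 mice gave the adipose tissue at postnatal week 21, with 7 libraries labelled as Dectin-1 knockout (KO, replicates 1 to 7) and 7 labelled wild type (WT, replicates 3 to 9). Dectin-1 is the β-glucan receptor of myeloid cells, encoded by Clec7a. By the series' design each library is from its own mouse. The labels name neither the allele nor the fat depot, and they mention no treatment. Values are TPM, a length-scaled share of each library's transcripts (transcripts per 1000000).

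Fat tissue keeps a stroma of fibroblast-like cells around its vessels and in its septa, and some of these cells become adipocytes. In mouse fat, cells that carry the receptor PDGFRα, CD34 and SCA-1 are widely taken as the progenitor pool. Within it, DPP4 and PI16 mark interstitial cells held to be the least committed, ICAM-1 marks committed preadipocytes, and CD142, the product of F3, marks cells described as restraining adipogenesis. None of these proteins is specific to progenitors: endothelium carries CD34, SCA-1 and LY6C1, mural cells carry PDGFRβ, and lymphocytes can carry DPP4, ICAM-1, SCA-1 and CD24.

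Clec7a, the targeted gene, stood at 6.94 ± 2.61 TPM in KO and 10.99 ± 5.99 TPM in WT (SD over 7 libraries a group), with a log2 fold change (KO minus WT) of -0.48 ± 0.33 (SE, limma adjusted p = 0.59) and overlapping ranges, so the libraries are called KO-labelled. The adipose label was met by the adipocyte gene Adipoq, at 683 to 3000 TPM in KO-labelled and 2001 to 4068 TPM in WT libraries. Of 7 mesothelial genes, the defining markers Msln, Upk3b and Wt1 were at no more than 0.39 TPM in any library. The 7 summed to 27.6 TPM in KO replicate 7, of which the keratin Krt19 made 25.9 TPM, against 1.84 to 2.66 TPM in the other KO-labelled and 1.72 to 4.75 TPM in WT libraries. The pieces differed in lymphoid content within both groups: 9 B-cell genes summed to 8.25 TPM in KO replicate 7, 2.72 TPM in WT replicate 4 and 4.72 TPM in WT replicate 7, against 495 to 2021 TPM in the other 11 libraries. In bulk tissue, fewer cells of a type and less RNA per cell cannot be told apart.

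Across libraries, 6 of the 10 genes correlated with fibroblast genes by Pearson's r (Pdgfra, Pdgfrb, Cd34, Ly6a, Ly6c1 and Pi16). F3 fell just short there (r = 0.70, adjusted permutation p = 0.062). F3, Ly6c1 and Pdgfrb correlated with endothelial genes by r, and Pdgfra and Cd34 only by Spearman's rho. Dpp4, Icam1 and Cd24a correlated with lymphocyte genes. None of the 10 differed between KO-labelled and WT libraries past the threshold, an adjusted p under 0.05 over all genes tested. Ly6a had the smallest p.

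Of the members, Ly6c1 and Ly6a belong to a family of short, closely related glycolipid-anchored proteins, and the start of the Ly6c1 coding sequence is shown beside that of its neighbour Ly6c2, a monocyte marker, because the level of one depends on how reads were parted from the other. Sequences are from GENCODE M21 transcripts on GRCm38, 5′ to 3′, bases 1 to 150 counted from the A of the start codon, with the differing bases in capitals.
Ly6c1: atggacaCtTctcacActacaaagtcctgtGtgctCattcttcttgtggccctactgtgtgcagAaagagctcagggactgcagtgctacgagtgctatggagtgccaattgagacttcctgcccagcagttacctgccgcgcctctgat
Ly6c2: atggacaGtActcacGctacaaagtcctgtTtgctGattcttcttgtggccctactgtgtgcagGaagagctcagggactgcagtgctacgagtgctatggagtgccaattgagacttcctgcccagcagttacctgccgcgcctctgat
The stretch holds 6 differences, C8G, T10A, A16G, G31T, C36G and A65G from Ly6c1 to Ly6c2, and none after position 65. Both genes are on the minus strand of chromosome 15 in that annotation, Ly6c1 at chr15:75044018-75048830 and Ly6c2 at chr15:75108158-75111970.

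The deposited length of each of the 10 genes equals that of 1 transcript in GENCODE M21. Of the 50-base windows in the Ly6c1 transcript of that length, 23.8% also occur in transcripts of other genes, 162 windows in Ly6c2 and 13 in Ly6a. For Ly6a the share was 11.2%, with 40 windows in Ly6c1 and 31 in Ly6i, and for Cd24a 2.45%, all in the gene model Gm6212. The share was 0.177% for Pdgfra, and Cd34, Pdgfrb, Dpp4, Pi16, Icam1 and F3 had no such window. Values of Ly6c1 and, less so, of Ly6a are therefore uncertain, since how shared reads were handled is not given in the sources used here.

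**Figure D1:**
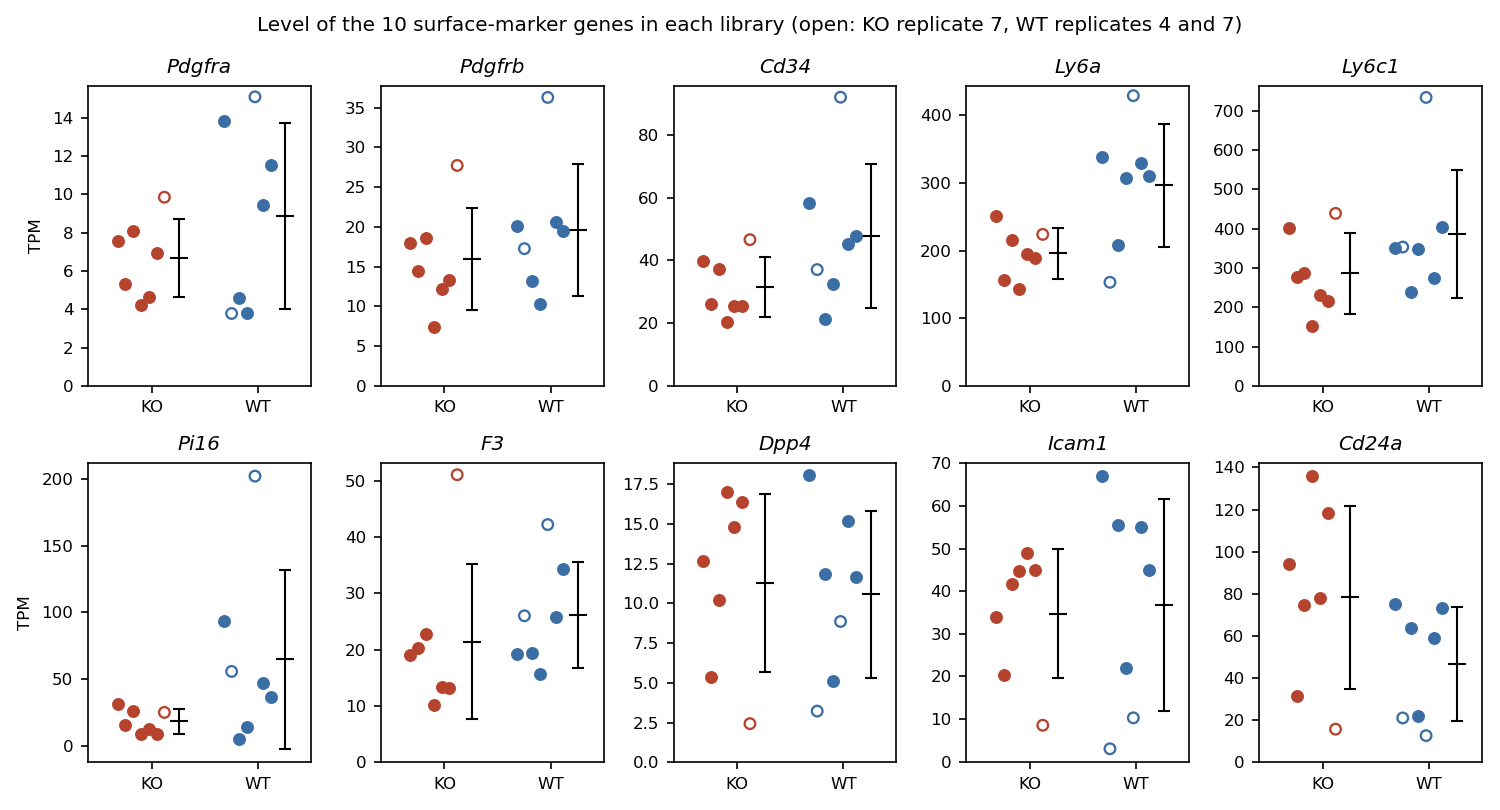
Level in TPM (vertical axes, each from its own scale) of the 10 genes in the 7 KO-labelled (red, left) and 7 WT (blue, right) libraries; black bars are the mean ± SD, and open points are KO replicate 7 and WT replicates 4 and 7, the libraries nearly without B-cell transcripts. The groups overlap for each gene, WT replicate 7 is the highest library for 6 of the 10, and the open points are the lowest for Icam1 and Cd24a.

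Per length, the members spanned a wide range of levels. Ly6c1 had the highest median over the 14 libraries, at 318 TPM, followed by Ly6a at 219.5, Cd24a at 68.6 and Icam1 at 43.3 TPM. Cd34 followed at 37.2, Pi16 at 25.55, F3 at 19.9, Pdgfrb at 17.6, Dpp4 at 11.8 and Pdgfra, the receptor that defines the pool, at 7.255 TPM. Ly6c1 exceeded Ly6a in 13 of 14 libraries and Ly6a exceeded Cd24a in all 14. Icam1 and Cd34 did not keep an order, with Icam1 higher in 7 of 14 libraries, nor did Pi16 and F3, with Pi16 higher in 7 of 14. WT replicate 7 was the highest library for 6 of the 10 members and KO replicate 4 the lowest for 5. KO replicate 4 also had the highest sum of B-cell genes (2021 TPM) and the lowest sum of 15 fibroblast genes (1754 TPM). WT replicate 7 had a B-cell sum of 4.72 TPM and the highest fibroblast sum (13724 TPM). TPM is a share, and the part of tissue composition in these extremes was not tested.

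The receptors for platelet-derived growth factors did not pass the test between the groups. Pdgfra, which marks the progenitor lineage, ranged from 4.22 to 9.85 TPM in KO-labelled libraries (median 6.94) and from 3.78 to 15.1 TPM in WT libraries (median 9.43). The KO-labelled range lay wholly inside the WT range, and the WT values fell apart into 3 libraries at 4.60 TPM or less and 4 at 9.43 TPM or more. The log2 fold change, KO minus WT on log2(TPM + 1), was -0.24 ± 0.31 (SE, 95% interval -0.90 to 0.42, limma adjusted p = 0.75). Pdgfrb, shared with mural cells, ranged from 7.47 to 27.7 TPM in KO-labelled libraries (median 14.4) and from 10.3 to 36.3 TPM in WT libraries (median 19.5). The highest value of each group was in replicate 7, and the log2 fold change was -0.28 ± 0.27 (95% interval -0.86 to 0.30, limma adjusted p = 0.69).

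Ly6a, which encodes SCA-1, ranged from 142.65 to 251 TPM in KO-labelled libraries (median 194.9) and from 153 to 429 TPM in WT libraries (median 309.6). In 5 of 7 WT libraries it lay above every KO-labelled library, while WT replicates 4 and 5 lay inside the KO-labelled range. The log2 fold change was -0.55 ± 0.21 (95% interval -0.999 to -0.101, limma adjusted p = 0.36), and it ranked 802 among 14719 genes by p. Leaving out the 3 libraries low in B-cell transcripts gave -0.64 ± 0.18 (limma adjusted p = 0.27). With the stromal score as a covariate it was -0.23 ± 0.18 (limma adjusted p = 0.82). With limma's weights for library quality Ly6a passed (log2 fold change -0.59, limma adjusted p = 0.044), in a fit that called 5.59% of all genes; its adjusted p over all alternatives ranged from 0.044 to 0.82.

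Cd34, a sialomucin of progenitors and endothelium, ranged from 20.5 to 46.6 TPM in KO-labelled libraries (median 25.96) and from 21.3 to 92.01 TPM in WT libraries (median 45.25). For Cd34 the log2 fold change was -0.51 ± 0.27 (95% interval -1.09 to 0.07, limma adjusted p = 0.49). Ly6c1, found on endothelium as well as on stromal cells, ranged from 152 to 439 TPM in KO-labelled libraries (median 277) and from 239 to 734 TPM in WT libraries (median 352). For Ly6c1 it was -0.43 ± 0.26 (limma adjusted p = 0.55). Ly6c1 and Ly6c2 summed stood at 369.9 ± 89.8 TPM in KO and 513 ± 131 TPM in WT (SD over 7 libraries a group). The exact permutation test gave p = 0.030, or 0.12 adjusted over the 4 such tests run on this gene pair, with overlapping ranges of 239 to 505 TPM in KO and 357 to 746 TPM in WT. Ly6c2 alone lay far below its other values in the 3 lymphoid-poor libraries, at 11.5 TPM in KO replicate 7, 3.19 TPM in WT replicate 4 and 11.9 TPM in WT replicate 7, against 47.1 to 262 TPM elsewhere, whereas Ly6c1 was at 353 TPM or more in those 3.

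Of the markers of interstitial progenitors, Pi16, which encodes a peptidase inhibitor, had the widest spread of the 10 genes. It ranged from 8.45 to 31.4 TPM in KO-labelled libraries (median 15.2) and from 5.29 to 202 TPM in WT libraries (median 47.25). The highest WT value was 38.2 times the lowest, and 5 of 7 WT libraries lay above every KO-labelled library while WT replicates 5 and 6 did not. The log2 fold change was -1.24 ± 0.64 (95% interval -2.61 to 0.13, limma adjusted p = 0.47) over 14 libraries and -0.77 ± 0.64 (limma adjusted p = 0.73) without the 3 lymphoid-poor ones, among them WT replicate 7 at 202 TPM. Dpp4, the surface peptidase CD26 that is used together with Pi16 for the same cells, had closer medians in the 2 groups. It ranged from 2.44 to 17.02 TPM in KO-labelled libraries (median 12.7) and from 3.23 to 18.1 TPM in WT libraries (median 11.7), with a log2 fold change of 0.05 ± 0.41 (95% interval -0.83 to 0.93, limma adjusted p = 0.96).

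Icam1, the integrin ligand used for committed preadipocytes, ranged from 8.53 to 49.02 TPM in KO-labelled libraries (median 41.8) and from 3.01 to 67.0 TPM in WT libraries (median 44.9). Its 3 lowest libraries were KO replicate 7 at 8.53 TPM, WT replicate 4 at 3.01 TPM and WT replicate 7 at 10.3 TPM. The log2 fold change was 0.23 ± 0.62 (limma adjusted p = 0.88), while the mean TPM was lower in KO, at 34.8 ± 15.05 against 36.8 ± 24.9 in WT (SD, n = 7 each), and without those 3 libraries the fold change was -0.28 ± 0.28 (limma adjusted p = 0.80). F3, tissue factor, ranged from 10.3 to 51.1 TPM in KO-labelled libraries (median 19.02) and from 15.8 to 42.2 TPM in WT libraries (median 25.8), with a log2 fold change of -0.38 ± 0.31 (limma adjusted p = 0.64). The KO-labelled values other than replicate 7 were at 22.8 TPM or less, and without that library the fold change was -0.61 ± 0.24 (limma adjusted p = 0.20).

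Cd24a encodes a small glycolipid-anchored sialoglycoprotein that has been used to divide the progenitor pool and that immature B cells also carry. It ranged from 15.8 to 136 TPM in KO-labelled libraries (median 78.2) and from 12.7 to 75.2 TPM in WT libraries (median 59.04). In 4 of 7 KO-labelled libraries it lay above all WT libraries, and the 3 lymphoid-poor libraries were the lowest of the 14. The log2 fold change was 0.72 ± 0.53 (95% interval -0.40 to 1.85, limma adjusted p = 0.61), and 0.57 ± 0.38 (limma adjusted p = 0.65) without those 3 libraries. The B-cell list moved the same way over all 14 libraries, with higher values in KO in 9 of 9 genes, 0 of them past the threshold. Both directions take in WT replicates 4 and 7 against only KO replicate 7 as lymphoid-poor. A link between them was not tested.

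Over the 10 members, 0 passed limma's test, where 0.0204% of all 14719 genes tested did. At an unadjusted p under 0.05 there was 1 member, Ly6a, where 11.4% of all genes had such a p. In 7 of 10 members the value was lower in KO, with a median log2 fold change of -0.33, where 45.4% of all genes were lower and the median was 0.04. The groups were without overlap for 0 members and for 0.319% of all genes. Each share of the members is read beside that of all genes as a description, since the members were not drawn at random.

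**Figure D2:**
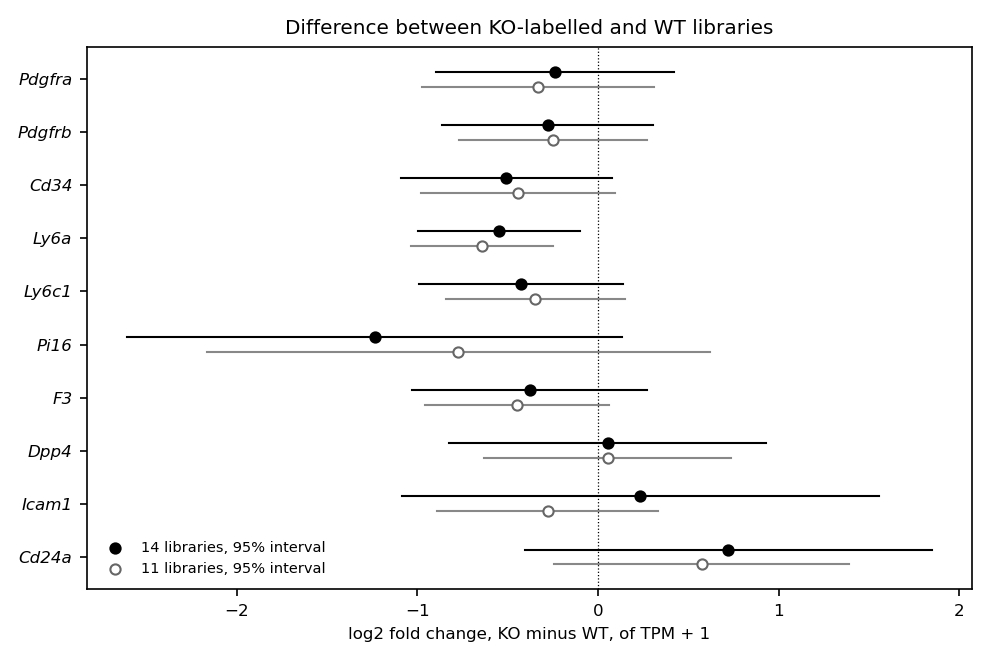
Log2 fold change of TPM + 1, KO minus WT (horizontal axis), for the 10 genes, with 95% intervals from limma over all 14 libraries (filled) and over the 11 libraries without KO replicate 7 and WT replicates 4 and 7 (open). Only the Ly6a interval lies wholly below 0 over 14 libraries, at -0.999 to -0.101, and Icam1 changes sign between the fits.

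Each member was also taken relative to Pdgfra, a general stromal receptor, in the same library. Pdgfra followed the list of fibroblast genes across 11 libraries (r = 0.83), so these ratios are not levels per progenitor cell. For Cd24a and Dpp4, which followed lymphocyte genes, the 2 transcripts of a ratio need not come from the same cells. Ratios are of TPM. The log2 differences and tests used log2(TPM + 1) minus that of Pdgfra, so they are not the logs of these ratios. The ratio of Pdgfrb to Pdgfra had a median of 2.37 in KO-labelled and 2.40 in WT libraries. That of Cd34 was 4.85 in KO-labelled and 4.80 in WT libraries, and that of Ly6a 29.5 in KO-labelled and 35.0 in WT libraries. Pi16 had a median ratio of 2.63 in KO-labelled (range 1.22 to 4.14) and 5.01 in WT libraries (range 1.15 to 14.7), a log2 difference of -0.996 ± 0.444 (limma adjusted p = 0.76). Cd24a differed about as much the other way, with a median ratio of 12.5 in KO-labelled (range 1.602 to 32.3) and 5.82 in WT libraries (range 0.842 to 13.9) and a log2 difference of 0.96 ± 0.61 (limma adjusted p = 0.76). The ratio of Dpp4 had a median of 1.67 in KO-labelled and 1.31 in WT libraries, a log2 difference of 0.29 ± 0.43. In that fit 0 of 9 members passed, where 0.0136% of all genes did, and Pi16 was the 1 member at an unadjusted p under 0.05, where 4.82% of all genes had such a p.

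Which transcripts each marker moved with was examined in the 11 libraries that hold lymphoid tissue, 6 KO-labelled and 5 WT, on log2 values centred on their group mean. Each member was set against the mean log2(TPM + 1) of 4 marker lists, which makes 40 relations, with permutation p-values adjusted over the 40. The tests called 15 by Pearson's r and 12 by Spearman's rho, and all 15 were positive. After leaving out the 2 libraries farthest from the median of a list's score, 8 of the 15 kept an exact permutation p under 0.05. Here and below, values were not centred again after libraries were left out. The r and exact p without 2 libraries can therefore hold some offset between the groups.

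The stromal list of 15 collagen and other fibroblast genes was followed most closely by Cd34 (r = 0.94, adjusted permutation p = 0.0036; rho = 0.98, adjusted p = 0.0064) and Pi16 (r = 0.93, adjusted permutation p = 0.0036; rho = 0.93, adjusted p = 0.0067). Pdgfrb (r = 0.87, adjusted permutation p = 0.016; rho = 0.92, adjusted p = 0.0067) and Pdgfra (r = 0.83, adjusted permutation p = 0.023; rho = 0.91, adjusted p = 0.0088) came next. For these 4 genes r was 0.82 or more without KO replicate 4 and WT replicate 5, the 2 libraries farthest out. Ly6a (r = 0.76, adjusted permutation p = 0.029; rho = 0.88, adjusted p = 0.0067) and Ly6c1 (r = 0.73, adjusted permutation p = 0.026; rho = 0.70, adjusted p = 0.066) rested on those 2 libraries, with r at 0.34 and 0.43 without them. F3 was not called (r = 0.70, adjusted permutation p = 0.062, and rho = 0.57, adjusted p = 0.17). Its r was 0.66 without the same 2 libraries (exact permutation p = 0.084), above those of Ly6a and Ly6c1. All 15 genes of that list had lower values in KO, with a median log2 fold change of -0.79 and 0 past the threshold. Among them Pcolce, a procollagen processing factor, stood at 49.6 ± 13.8 TPM in KO and 98.7 ± 42.8 TPM in WT (SD, n = 7 each). With the stromal score as a covariate the fold change of Pi16 was 0.02 ± 0.36, of Cd34 0.07 ± 0.12 and of Pdgfra 0.34 ± 0.21 (SE). The score itself was lower in KO, with a mean of 5.675 against 6.446 in WT. That fit therefore cannot part a group difference of a member from that of the score, and no cause is read from it.

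The endothelial list was followed by F3 (r = 0.81, adjusted permutation p = 0.020; rho = 0.78, adjusted p = 0.028), Ly6c1 (r = 0.80, adjusted permutation p = 0.025; rho = 0.85, adjusted p = 0.011) and Pdgfrb (r = 0.78, adjusted permutation p = 0.025; rho = 0.73, adjusted p = 0.055). Without KO replicate 4 and WT replicate 9, r was 0.61 for F3, 0.68 for Ly6c1 and 0.74 for Pdgfrb. Among them only that of Pdgfrb kept an exact permutation p under 0.05, at 0.014. Pdgfra and Cd34 were called by rho only (rho = 0.80 and 0.78, adjusted p = 0.031 and 0.037). Their r was 0.66 and 0.63 (adjusted permutation p = 0.053 and 0.12). Without the same libraries it was 0.61 and 0.58 (exact permutation p = 0.0097 and 0.045). Of the 10 endothelial genes, 9 had higher values in KO (median log2 fold change 0.19) and 0 passed.

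The other 3 markers followed lymphocyte genes. Cd24a (r = 0.83, adjusted permutation p = 0.0046; rho = 0.84, adjusted p = 0.014) and Dpp4 (r = 0.82, adjusted permutation p = 0.0046; rho = 0.82, adjusted p = 0.017) followed the B-cell list, and Icam1 followed the T-cell list (r = 0.92, adjusted permutation p = 0.0046; rho = 0.82, adjusted p = 0.031). Without the 2 farthest libraries, KO replicates 2 and 4 for B cells and KO replicate 2 and WT replicate 6 for T cells, these were 0.63, 0.69 and 0.70. The T-cell relations of Dpp4 and Cd24a, at r = 0.84 and 0.81 (adjusted permutation p = 0.023 and 0.025; rho = 0.68 and 0.62, adjusted p = 0.10 and 0.085), fell to 0.39 and 0.23 without those 2 libraries. That of Icam1 with B cells (r = 0.73, adjusted permutation p = 0.018; rho = 0.59, adjusted p = 0.14) was 0.59 (exact permutation p = 0.061). With the stromal list, r lay between -0.09 and -0.0048 for the 3 genes (adjusted permutation p = 0.99 each). Without KO replicate 4 and WT replicate 5 it was 0.27 for Dpp4, 0.33 for Icam1 and 0.32 for Cd24a, close to the 0.34 of Ly6a, so the values near 0 rest on those 2 libraries. The lymphoid-poor libraries took no part in these values. In them Icam1 and Cd24a lay below the range of the other 11 libraries in all 3. Dpp4 did so in KO replicate 7 (2.44 TPM) and WT replicate 4 (3.23 TPM) only. In WT replicate 7 it stood at 8.87 TPM, inside the 5.12 to 18.09 TPM of the 11.

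**Figure D3:**
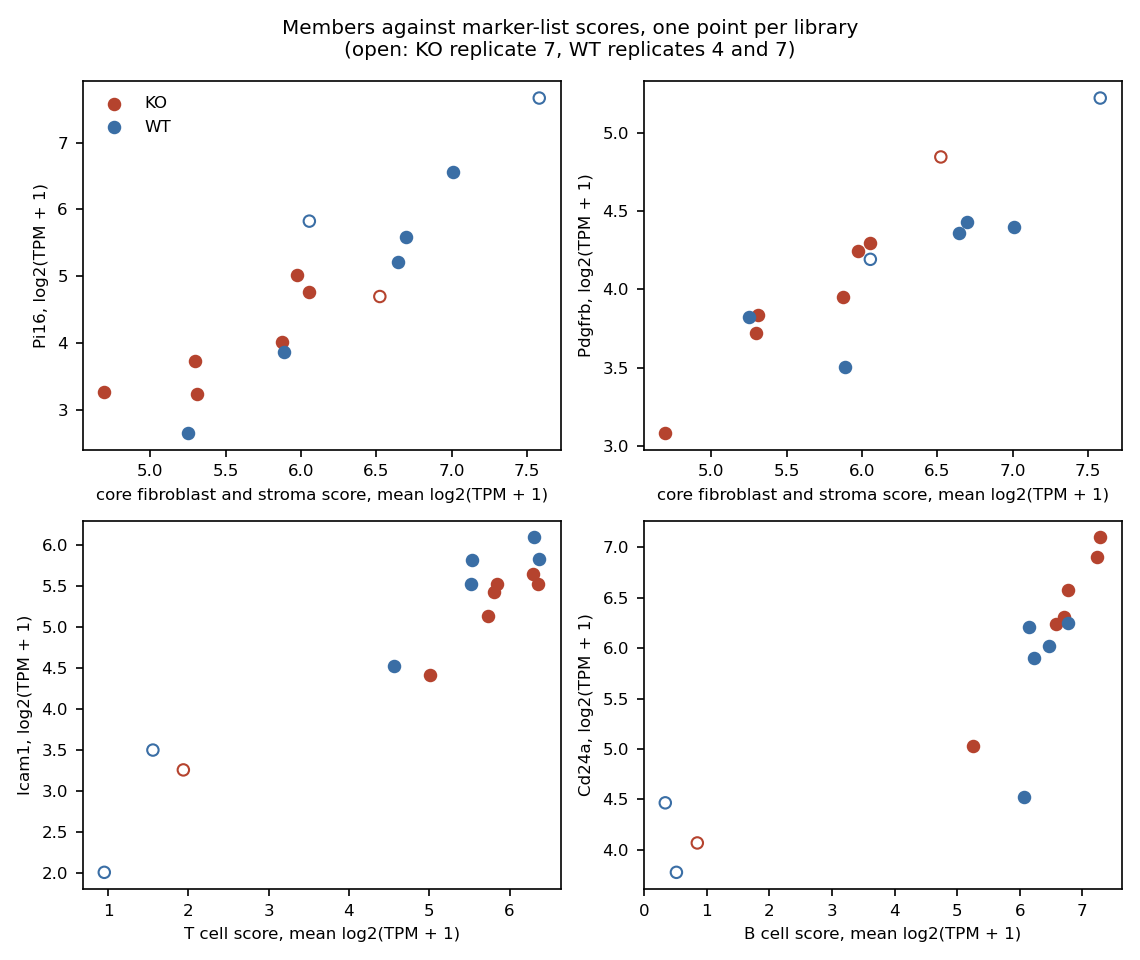
Log2(TPM + 1) of Pi16 and Pdgfrb against the stromal score (top), of Icam1 against the T-cell score and of Cd24a against the B-cell score (bottom), 1 point per library, KO-labelled in red and WT in blue; open points are the 3 libraries nearly without B-cell transcripts, which were left out of the correlations. Pi16 climbs with the stromal score in both groups, and the open points lie lowest for Icam1 and Cd24a and far left on the lymphocyte scores.

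Among the members themselves, the 45 pairs fell the same way. Of the 21 pairs among the 7 genes other than Dpp4, Icam1 and Cd24a, 11 were called, with r from 0.39 to 0.96; the closest were Cd34 and Pi16 (r = 0.96, adjusted permutation p = 0.0079; rho = 0.93, adjusted p = 0.0098; r = 0.93 without WT replicates 3 and 5) and Cd34 and Ly6a (r = 0.88, adjusted permutation p = 0.0079; rho = 0.89, adjusted p = 0.0070). Dpp4 was close to Icam1 (r = 0.94, adjusted permutation p = 0.014; rho = 0.74, adjusted p = 0.062) and to Cd24a (r = 0.94, adjusted permutation p = 0.014; rho = 0.79, adjusted p = 0.030). Icam1 and Cd24a did not pass (r = 0.87, adjusted permutation p = 0.050; rho = 0.46, adjusted p = 0.28), and r was 0.08 without KO replicate 2 and WT replicate 6. The 2 relations of Dpp4 fell to 0.65 and 0.60 without the same 2 libraries, with exact permutation p of 0.080 and 0.10, so all 3 rest on them in part. Between those 7 genes and these 3, 0 of 21 pairs were called, at r from -0.36 to 0.46 (smallest adjusted permutation p = 0.37). Dpp4 and Pi16, markers of the same interstitial cells, were at r = 0.23 (adjusted permutation p = 0.79; rho = 0.27). The division into 2 sets was made after these values were seen.

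**Figure D4:**
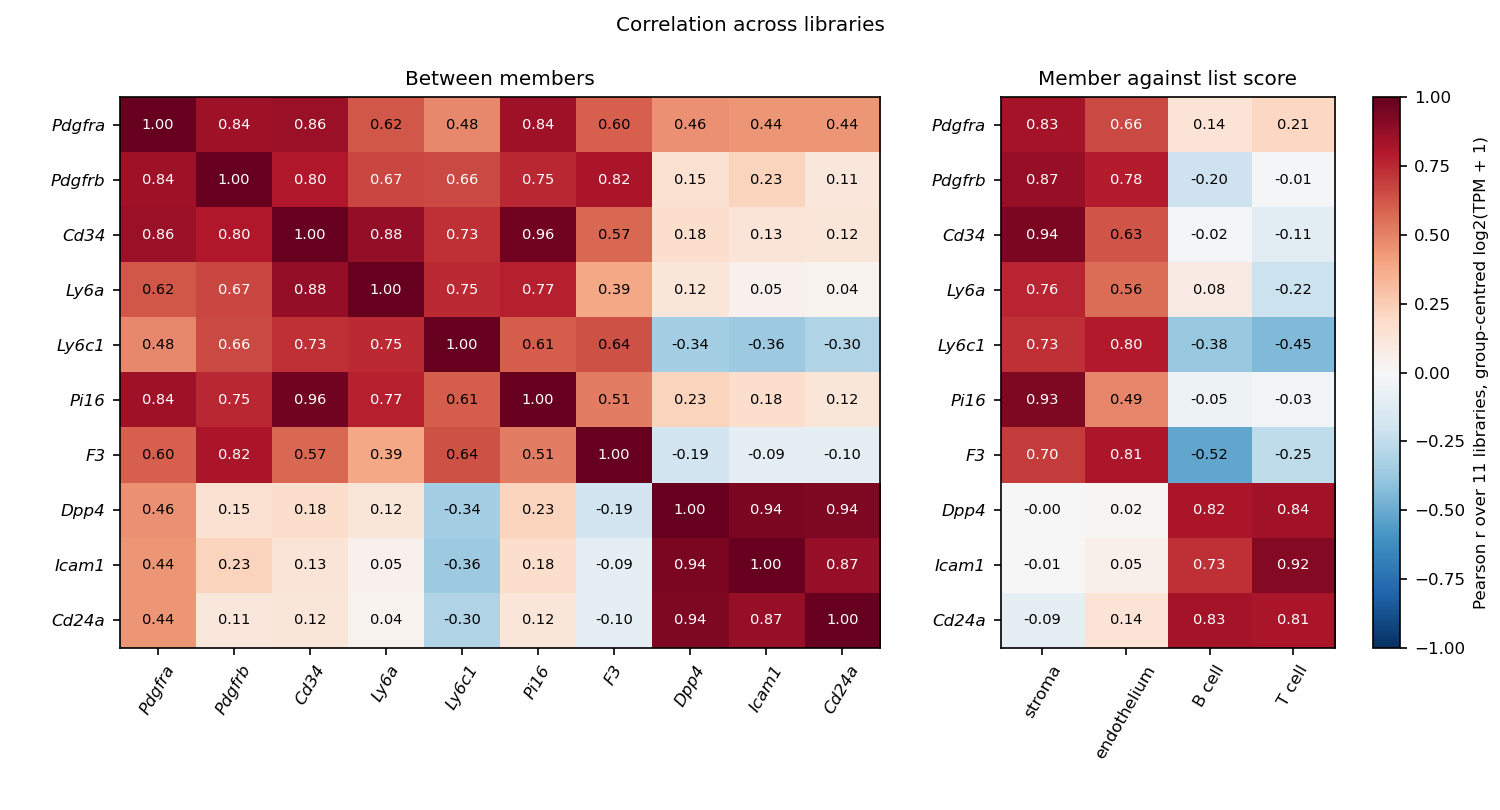
Pearson r (colour and printed value) between the 10 genes (left) and of each gene with the stromal, endothelial, B-cell and T-cell scores (right), over 11 libraries on log2(TPM + 1) values centred on their group mean. Dpp4, Icam1 and Cd24a stand at r 0.87 to 0.94 with one another, though at 0.08 to 0.65 without KO replicate 2 and WT replicate 6, and between -0.09 and -0.0048 with the stromal score, though at 0.27 to 0.33 without KO replicate 4 and WT replicate 5.

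The genes most like each member, by Pearson r over the same 11 libraries, are given as a description. They are the largest r among all named genes tested other than the members. How far they rest on single libraries was not tested. For Pdgfra they were Aebp1 (0.99), Agap1 (0.97) and St3gal2 (0.96), and for Pdgfrb Gjc1 (0.98), Tnfrsf1a (0.97) and Rtn4rl1 (0.96). Emilin2, a matrix glycoprotein, was among the nearest 3 of both Cd34 (0.98, beside Dnm1 at 0.98 and Pla1a at 0.97) and Pi16 (0.99, beside the fibrillin gene Fbn1 at 0.97 and Ace at 0.97). Ly6c1 lay nearest to Aplnr, the apelin receptor of endothelium (0.96), Tbx2 (0.96) and Glt8d1 (0.96), Ly6a to Srpx (0.91), Erbb2 (0.89) and Metrnl (0.89), and F3 to Ppp1r9a (0.97), Evi5l (0.96) and Cyp2j9 (0.96). Near Cd24a lay Creb1 (0.99) and Tnfrsf13c, the BAFF receptor of B cells (0.99). Dpp4 lay nearest to Kat2a (0.99), the Fc receptor gene Fcgr2b (0.99) and Atp10d (0.99), and Icam1 to Pik3r5, Clu and Mrtfa (0.99 each).

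Other genes of the same progenitor states were read from lists written with earlier results of these data known. Of 13 further genes of interstitial progenitors 9 were tested, 7 lower and 2 higher in KO, with a median log2 fold change of -0.16 and 0 past limma's threshold. Fn1, fibronectin, stood at 22.05 ± 6.68 TPM in KO and 50.7 ± 33.9 TPM in WT, and Sema3c, a semaphorin, at 2.69 ± 1.53 TPM in KO and 5.02 ± 3.06 TPM in WT (SD, n = 7 each). Cd55, a complement inhibitor used for the same cells, stood at 65.7 ± 30.7 TPM in KO and 51.97 ± 26.4 TPM in WT. Over the 11 libraries of the correlations, Cd55 ranked 6 among the genes most like Cd24a (r = 0.98), which followed the B-cell list. Its level is therefore not read as that of interstitial progenitors alone. Of 12 genes of committed preadipocytes 9 were lower (median -0.37, 0 passed), among them the preadipocyte factor Dlk1 at 1.096 ± 0.742 TPM in KO and 3.26 ± 1.68 TPM in WT (limma adjusted p = 0.22) and the vessel-associated peptidase Ggt5 at 10.3 ± 2.6 TPM in KO and 13.1 ± 2.2 TPM in WT. Of 8 genes listed for CD142-positive stroma 6 were lower (median -0.41, 0 passed), among them the growth factor Clec11a at 0.913 ± 0.205 TPM in KO and 1.39 ± 0.24 TPM in WT and matrix Gla protein, Mgp, at 28.95 ± 16.5 TPM in KO and 47.4 ± 17.1 TPM in WT.

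Ligands and partners of the markers gave no call either: of 15 genes 13 were tested, 7 lower and 6 higher in KO, with a median of -0.11. Pdgfc, a ligand of PDGFRα, stood at 5.47 ± 2.64 TPM in KO and 9.31 ± 1.97 TPM in WT, a log2 difference of -0.74 ± 0.23 (limma adjusted p = 0.26), and Pdgfa, Pdgfb and Pdgfd had log2 fold changes of -0.22, 0.13 and 0.04. Tfpi, the inhibitor of the tissue factor pathway, stood at 8.54 ± 2.90 TPM in KO and 12.0 ± 3.5 TPM in WT (limma adjusted p = 0.45). Siglecg, a CD24 receptor of B cells, stood at 28.8 ± 16.9 TPM in KO and 13.98 ± 10.3 TPM in WT (limma adjusted p = 0.61). Of the Ly6 family 9 of 11 genes were tested, 5 lower and 4 higher with 0 called, and Ly6f and Ly6g were at 0.13 TPM or less in every library.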

How the data were processed

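RNA of adipose tissue from 14 mice was sequenced, 1 library per mouse, and the authors deposited 1 table of TPM per gene. The submitters' processing notes name Bowtie 0.12.2 and the builds mm8 and mm9. Which program, annotation and strand setting made the TPM values is not given in the sources used here. TPM keeps no sequencing depth, so read counts and their precision are unknown.

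Rows with the same gene name were summed. The 14719 genes that reached 1 TPM in 7 libraries or more were tested on log2(TPM + 1) with limma 3.58.1 (limma-trend, robust, R 4.3.3), 2-sided, with Benjamini-Hochberg adjustment over all of them. Fold changes on this scale understate changes of low genes. All 10 members passed the filter. A second fit used values relative to Pdgfra. Correlations were tested by 100000 permutations within groups. The limma step was checked on simulated data.

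The members and gene lists were chosen with earlier results of these data known. Named are the members, Clec7a, up to 4 genes of each list by smallest p and the 3 genes most like each member, of which 1 is not reported here. Adipoq, Cd55, the mesothelial genes, Ly6f, Ly6g and further PDGF ligands were named in addition, after their values were seen. Scaling, filters, pseudocounts, covariates, weights, a replicate block and leaving out libraries were tried as alternatives.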

Additional observations from a re-analysis of the deposited data

Results flagged for a closer look

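Of the 20 groups of 7 values, 10 genes in KO and in WT, 3 had a highest library set apart from the rest. The rule was applied to TPM, not to log2 values. Its rate by chance of about 1 in 20 holds for normally distributed values, which TPM need not be. The count is therefore not read against that rate. F3 in KO replicate 7 stood at 51.09 TPM, with the next KO library at 22.83 TPM, a gap of 0.692 of the group's range. Ly6c1 in WT replicate 7 stood at 734.11 TPM, with the next WT library at 404.21 TPM, a gap of 0.667 of the range. Pdgfrb in WT replicate 7 stood at 36.27 TPM, with the next WT library at 20.57 TPM, a gap of 0.606 of the range. Both libraries are among the 3 nearly without B-cell transcripts. The part of tissue composition in these values was not tested.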

How the results depend on the processing

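In limma's test of KO against WT, 3 genes passed of all tested, 0 higher and 3 lower. The count was 1 with no filter, 1 with rows as deposited, 8 with median-ratio scaling (3 higher, 5 lower), 19 with quantile normalization (13 higher, 6 lower) and 6 without mitochondrial genes (2 higher, 4 lower). It was 0 without the 3 libraries low in B-cell transcripts, 25 with the B-cell score as a covariate (7 higher, 18 lower), 0 with the stromal score and 823 with array weights (248 higher, 575 lower). Leaving out each library in turn gave 0 to 6. The count of members that passed was 1 with array weights, which was Ly6a, and 0 otherwise. The cause was not tested.

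Of 280 single-member values, 21 changed sign. Dpp4 was at -0.018 with quantile normalization, -0.24 with the B-cell score, -0.13 with the stromal score and -0.029 with array weights, and leaving out a library gave -0.16 to 0.33. Icam1 was at -0.28 without the 3 libraries, -0.28 with the B-cell score, -0.12 with the stromal score and -0.21 with array weights, and leaving out a library gave -0.22 to 0.52. With the stromal score Ly6c1 was at 0.056, Cd34 at 0.074, Pdgfra at 0.34, Pdgfrb at 0.27, Pi16 at 0.0197 and F3 at 0.14. Ly6a and Cd24a kept their sign, but with the stromal score Ly6a was at -0.23 and Cd24a at 0.19, and with the B-cell score Cd24a was at 0.32. Leaving out a library gave -0.70 to -0.45 for Ly6a, 0.47 to 1.05 for Cd24a, -0.61 to -0.24 for F3, -1.68 to -0.85 for Pi16, -0.67 to -0.33 for Cd34, -0.54 to -0.26 for Ly6c1, -0.39 to -0.09 for Pdgfra and -0.42 to -0.12 for Pdgfrb. Without WT replicate 7 alone, Cd24a was at 0.47, Cd34 at -0.33, Ly6c1 at -0.26, Pdgfra at -0.09 and Pdgfrb at -0.12.

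Replicates 3 to 7 occur in both groups, and same-numbered libraries correlated at 0.11, -0.67, 0.60, -0.18 and 0.80. KO replicate 7 and WT replicate 7 both nearly lack B-cell transcripts, and of replicate 4 only the WT library does. Whether the numbers pair the libraries therefore cannot be told from these values. A replicate block over those 10 libraries gave 0 genes, as did the same 10 without it. The block lowered the SE of every member but Dpp4. For Ly6c1 the SE was 0.22 with the block and 0.34 without it, and for Dpp4 0.54 and 0.53. The smallest limma adjusted p of a member was 0.50 with the block and 0.55 without it. TPM gives no depth, so low values carry an unknown counting error.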

Other observations

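Other cell types of the tissue also varied between libraries, with 0 genes past limma's threshold in each list. The 10 macrophage genes were lower in KO in 9 cases (median log2 fold change -0.50), and the 10 adipocyte genes in all 10 (median -0.63). The 10 T-cell genes were higher in KO in all 10 (median 0.92), as were the 9 B-cell genes (median 1.16). These medians take in the lymphoid-poor libraries, which are WT replicates 4 and 7 but only KO replicate 7. In the other libraries the B-cell score, a mean of log2(TPM + 1), spanned 5.26 to 7.29 in KO and 6.06 to 6.78 in WT. The T-cell score there spanned 5.01 to 6.36 in KO and 4.56 to 6.37 in WT. Of 9 mural genes 7 were lower (median -0.23), of 6 mast-cell genes tested 5 were lower (median -0.09), of 6 Schwann-cell genes 5 were lower (median -0.19), and of 6 monocyte and neutrophil genes tested 2 were lower (median 0.01). The 8 skeletal muscle genes were lower in KO (median -1.73), with summed levels of 15.9 to 6648 TPM in KO-labelled and 22.8 to 21115 TPM in WT libraries, so some pieces carried much more muscle RNA than others. Of 7 mesothelial genes 1 was tested, at -0.17.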
